A study of Aedes aegypti and Anopheles culicifacies with 47 samples.

Results

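*fruitless* (AAEL024283) and *doublesex* (AAEL009114) are the terminal genes of the insect sex determination pathway, and they are described here in adult females of *Aedes aegypti*, a mosquito that bites by day. They were taken by identifier as 2 of the 19804 *Aedes* gene IDs counted, with no filter on level. That choice was made with earlier results of these data known. The study sequenced RNA of brain and olfactory tissue from 2 mosquito species, held in cycles of 12 h light and 12 h dark, to compare the daily rhythm of both tissues. Olfactory tissue was the antennae, maxillary palps, proboscis and labium together. Dissections were made at 6am, 12pm, 6pm and 12am from wild-type females 5 to 6 days old, all of 1 cohort. All *Aedes* groups share that genotype and light cycle and differ by design in tissue and clock time, and there is no male group. Among the *Aedes* titles, only those of olfactory samples also carry the words Read 1.

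The levels come from 16 of 24 *Aedes* samples, and the other 8 were not used here. For olfactory tissue the 6am and 12pm groups held 2 libraries each, the 6pm group 3 and the 12am group 1. Every brain group held 2. The reads assigned to genes numbered 853349 to 6558092 per olfactory library and 5072614 to 10202123 per brain library. In olfactory 12pm replicate 2, 34.7% of the reads overlapped no annotated gene, against 11.9 to 24.2% in the other olfactory libraries and 17.4 to 21.9% in brain. The single gene with the most counts took 9.06 to 18.4% of the gene counts in olfactory libraries and 1.85 to 3.97% in brain. None of the IDs matched the RefSeq gene table used here (0 matches), so markers of either tissue and further genes of the pathway were not analysed here.

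Both genes encode transcription factors whose transcripts are spliced differently in males and females. *fruitless* encodes a family of proteins with a BTB domain and alternative zinc fingers. In *Drosophila* its male-specific forms, made from the distal promoter in neurons, specify courtship behaviour, while forms from other promoters are made in both sexes and act in development. *doublesex* encodes a protein with a DM DNA-binding domain. Its female and male forms share that domain, differ at the carboxyl end and direct sexual differentiation of many tissues in *Drosophila*. In *Aedes aegypti* the male-determining factor is *Nix*, and male mosquitoes carry male-spliced forms of both genes. Each count used here adds all transcript forms of a gene, so a level says nothing of which form was present.

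The level of *fruitless*, summed over all its transcript forms, was lower in olfactory tissue than in brain. It is given as counts per 1000000 gene counts of the library (CPM), before any further scaling. At 6am it was 77.9 and 50.5 CPM in the olfactory libraries, against 145 and 153 CPM in the brain libraries. At 12pm the olfactory libraries had 54.8 and 79.0 CPM and the brain libraries 116 and 256 CPM. The olfactory values at both clock times lay below every brain value.

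At 6pm *fruitless* stood at 52.6, 48.0 and 60.7 CPM in olfactory tissue, against 192 and 151 CPM in brain. At 12am the single olfactory library had 63.1 CPM and the brain libraries had 127 and 160.1 CPM. Over all clock times *fruitless* averaged 60.8 ± 12.0 CPM in olfactory tissue and 162 ± 44.0 CPM in brain (SD, n = 8 each). All 8 olfactory libraries were below the lowest brain library, and the share of all genes separated as fully was not counted. Counts of 41 to 398 in the olfactory libraries and 774 to 2610 in the brain libraries lay behind these values. With its exact Poisson 95% interval, the thinnest value, 48.0 CPM in olfactory 6pm replicate 2, ran from 34.5 to 65.2 CPM, still under the lower limit of the lowest brain library, 107.8 CPM. These intervals cover counting error only. *fruitless* stood above 85.7 to 93.6% of the gene IDs in an olfactory library and above 91.4 to 96.1% in a brain library.

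*doublesex*, also summed over all its transcript forms, had lower counts and a wider spread. At 6am it was at 18.4 and 12.3 CPM in the olfactory libraries, against 14.1 and 9.86 CPM in the brain libraries. At 12pm the olfactory libraries had 6.96 and 97.4 CPM and the brain libraries 8.73 and 18.7 CPM. The 2 olfactory libraries of 12pm were thus the lowest and the highest of their tissue, with 15 and 111 counts. The Poisson intervals of these 2 libraries, 3.90 to 11.5 CPM in replicate 1 and 80.1 to 117 CPM in replicate 2, were far apart.

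At 6pm *doublesex* stood at 10.99, 18.7 and 9.30 CPM in olfactory tissue, against 19.5 and 5.18 CPM in brain. At 12am it was 21.1 CPM in the olfactory library and 8.91 and 10.2 CPM in the brain libraries. The groups overlapped at 6am, 12pm and 6pm. Over all clock times the olfactory libraries ran from 6.96 to 97.4 CPM with a median of 15.3 CPM, and the brain libraries from 5.18 to 19.5 CPM with a median of 10.01 CPM. Means were 24.4 ± 29.9 CPM in olfactory tissue and 11.9 ± 5.07 CPM in brain (SD, n = 8 each). Without olfactory 12pm replicate 2, the library with the largest share of reads outside annotated genes, the olfactory mean was 13.97 ± 5.42 CPM (SD, n = 7). The part of that share in the *doublesex* value was not tested.

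**Figure D1:**
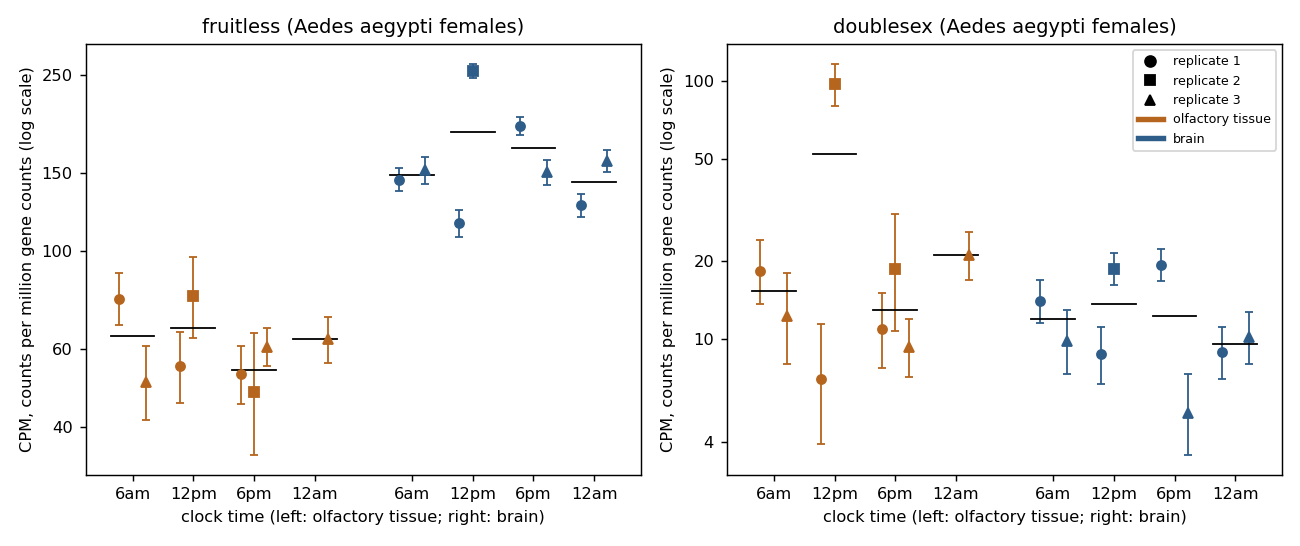
Level of *fruitless* (left) and *doublesex* (right) in each of the 16 libraries, in CPM on a log axis, by clock time, with olfactory tissue at the left and brain at the right of each panel. Points are libraries with exact Poisson 95% intervals (counting error only). Their shapes mark the replicate number and black lines are group means. The olfactory *fruitless* values, 48.0 to 79.0 CPM, all lie below the brain values, 116 to 256 CPM. With the scaling used in the tests below, 7 of the 8 olfactory libraries lie below the lowest brain library. The share of all genes separated as fully was not counted. The *doublesex* values overlap, with 1 olfactory library at 97.4 CPM.

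The question of whether the tissues differed was tested with edgeR's quasi-likelihood test on the counts of all genes, averaged over the clock times. TMM factors, which scale libraries on the premise that most genes do not differ, were applied. *fruitless* was lower in olfactory tissue, with a log2 difference of -0.85 (SE 0.19, adjusted p = 0.00119, Benjamini-Hochberg over 11442 genes). After TMM scaling it averaged 75.5 ± 19.1 CPM in olfactory tissue and 138 ± 39.3 CPM in brain (SD, n = 8 each). There 7 of 8 olfactory libraries were below the lowest brain library, and the exception was 6am replicate 1 at 111 CPM.

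*doublesex* was higher in olfactory tissue in the same test, with a log2 difference of 1.35 (SE 0.46, edgeR adjusted p = 0.0195). After TMM scaling it averaged 30.2 ± 36.9 CPM in olfactory tissue and 10.2 ± 4.46 CPM in brain (SD, n = 8 each), with 4 of 8 olfactory libraries above the highest brain library. This call was lost without olfactory 12pm replicate 2, where the log2 difference was 0.67 (edgeR adjusted p = 0.101), and without olfactory 6am replicate 1, where it was 1.25 (adjusted p = 0.0551). It was also lost on plain library totals, where the log2 difference was 0.82 (edgeR adjusted p = 0.121). The adjusted p ran from 0.00102 to 0.121 over the 28 alternatives tried. For *fruitless* it ran from 1.72e-05 to 0.0241, below the threshold in all 28. There the log2 difference was -1.40 on plain library totals and -0.54 when genes averaging under 50 counts were left out.

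Both calls stand against a background in which 71.8% of the genes tested were called, 38.1% as higher and 33.6% as lower in olfactory tissue. Most genes therefore differed between the tissues, and a call by itself sets neither gene apart. The premise of TMM scaling thus did not hold across the tissues, and the size of each log2 difference depends on the scaling chosen. How many of all genes overlapped as little between the tissues was not counted, so little overlap does not set them apart either. The median log2 difference of all genes was 0.13 (quartiles -0.94 and 1.65), and 26.8% of the genes had a lower value than *fruitless* and 71.8% a lower value than *doublesex*. Plain library totals moved that median to -0.41. Relative to the median of all genes, *fruitless* was at -0.98 with TMM scaling and -0.99 on plain totals, and *doublesex* at 1.22 with TMM scaling and 1.23 on plain totals. A change of scaling shifts all genes almost alike, so this likeness is no check. With genes averaging under 50 counts left out, *fruitless* was at -0.56 and *doublesex* at 1.65 from the median. With no low count filter they were at -1.125 and 1.078. In bulk tissue, fewer cells that express a gene and less RNA per cell cannot be told apart. Nor can tissue be told apart from library preparation, since each library holds 1 tissue and the tissues differ in depth.

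**Figure D2:**
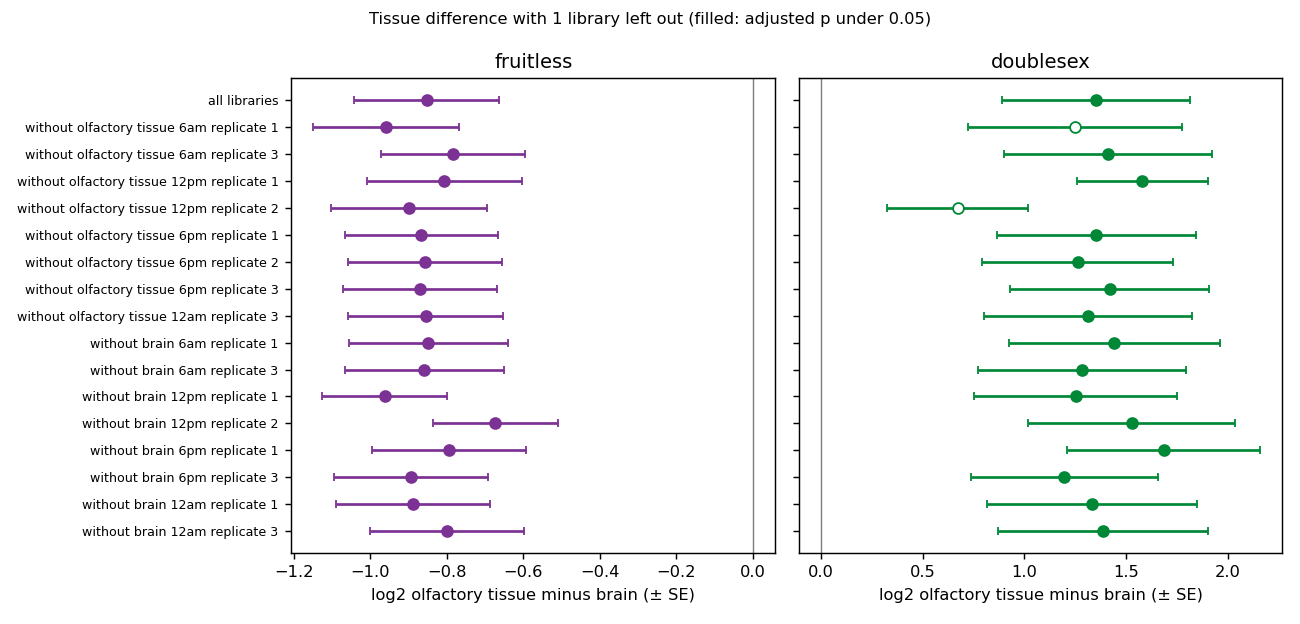
Log2 difference of olfactory tissue minus brain, averaged over clock times, for *fruitless* (left) and *doublesex* (right), in edgeR with all libraries and with each of the 16 libraries left out in turn. Points are fitted values with SE bars, and filled points passed an adjusted p of 0.05; *fruitless* stays between -0.96 and -0.67 and *doublesex* between 0.67 and 1.69, with its lowest value when olfactory 12pm replicate 2 is left out.

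Libraries of both tissues with the same clock time and replicate number form 7 pairs. In 6 of them the deviations from the group means went together weakly over all genes (r = 0.13 to 0.24). The 12am pair could not be checked, since its olfactory group is 1 library. *fruitless* was lower in the olfactory library of all 7 pairs, by 0.14 to 1.60 on the log2 scale with TMM-scaled CPM. The smallest gap was at 6am replicate 1, with 111 CPM in olfactory tissue and 123 CPM in brain, and the largest at 6pm replicate 1, with 54.9 CPM in olfactory tissue and 166 CPM in brain. *doublesex* was higher in the olfactory library of 6 of 7 pairs, the exception being 6pm replicate 1, with 11.5 CPM in olfactory tissue and 16.9 CPM in brain. For all genes such counts of pairs were not made.

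In an edgeR fit with these pairs as a block, *fruitless* had a log2 difference of -0.87 (SE 0.18, adjusted p = 0.000520) and *doublesex* one of 1.12 (SE 0.33, adjusted p = 0.00784). Without the pair of 12pm replicate 2, that is without both its olfactory and its brain library, *doublesex* was at 0.81 (SE 0.28, edgeR adjusted p = 0.0196, 6 pairs). Both paired fits were chosen after seeing the data. The last one differs from the unpaired fit without olfactory 12pm replicate 2 in the block and in the libraries left out, so their calls cannot be set against each other.

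The ratio of the 2 genes' counts within a library does not depend on depth or scaling. Since the genes differ in length, only its change between libraries can be read, not which gene was more abundant. In olfactory tissue *fruitless* had 4.24 and 4.12 counts per *doublesex* count at 6am, 7.87 and 0.811 at 12pm, 4.78, 2.56 and 6.52 at 6pm, and 2.99 at 12am. In brain the ratio was 10.3 and 15.5 at 6am, 13.2 and 13.7 at 12pm, 9.86 and 29.2 at 6pm, and 14.3 and 15.8 at 12am. All olfactory ratios were below all brain ratios.

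The geometric mean of the ratio was 3.53 in olfactory tissue and 14.3 in brain. On the log2 scale it averaged 1.82 ± 1.01 in olfactory tissue and 3.84 ± 0.48 in brain (SD, n = 8 each), a difference of -2.02 (two-sided exact permutation test, p = 0.000155, the smallest its 12870 splits allow). The ratio was thus 4.05-fold lower in olfactory tissue. It was lower in all 7 pairs (exact sign-flip permutation p = 0.0156, the smallest that 7 pairs allow). Without olfactory 12pm replicate 2 the difference was -1.72 (exact permutation p = 0.000155) and the olfactory geometric mean 4.36. The tissues thus did not overlap in the balance of the 2 genes, and their log2 means differed by more than either SD. This held also without olfactory 12pm replicate 2, where the *doublesex* level alone did not pass the test. The gap was narrow, from 7.87 in olfactory 12pm replicate 1 to 9.86 in brain 6pm replicate 1. The counting error interval of that olfactory library, 4.58 to 14.5, reached past the lowest brain ratios. Other gene pairs were not compared, so the difference does not set these 2 genes apart. The ratio combines both levels, so its difference is not independent of the 2 tissue differences above.

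**Figure D3:**
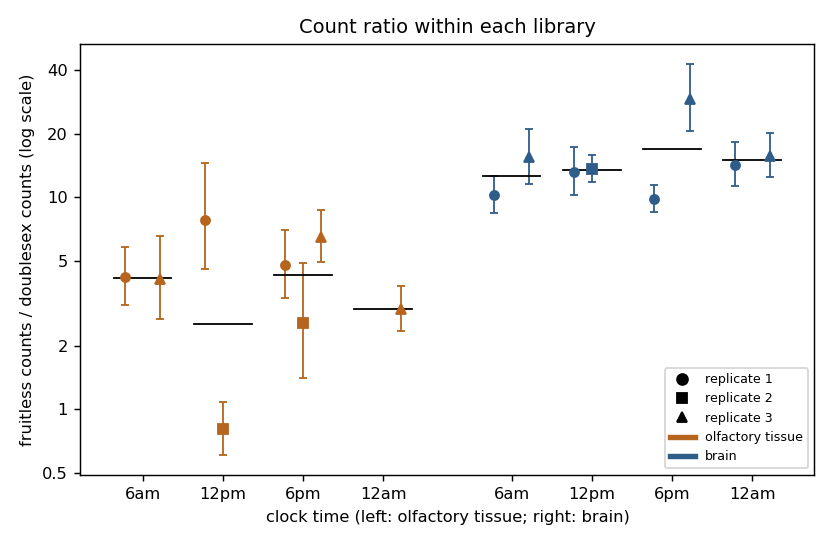
Counts of *fruitless* per count of *doublesex* within each library, on a log axis, by clock time, with olfactory tissue at the left and brain at the right. Bars are exact 95% Clopper-Pearson intervals turned into ratios (counting error only) and black lines are geometric means of a group; olfactory libraries run from 0.811 to 7.87 and brain libraries from 9.86 to 29.2.

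The daily rhythm was the study's main question, and neither gene passed edgeR's test for any difference between clock times, run in each tissue on genes past the low count filter. In olfactory tissue the highest and lowest fitted levels of *fruitless*, at 6am and 6pm, were 0.56 apart on the log2 scale (edgeR adjusted p = 0.894). That span was 0.10 without 6am replicate 1, 0.87 without 6am replicate 3 and 0.25 on plain library totals, with an adjusted p of 0.530 to 1.00 over all alternatives. In brain those of *fruitless*, at 12pm and 12am, were 0.37 apart (edgeR adjusted p = 1.00). TMM-scaled brain means were 124 ± 1.07 CPM at 6am, 161 ± 86.4 CPM at 12pm, 146 ± 28.4 CPM at 6pm and 122 ± 21.2 CPM at 12am (SD, n = 2 each). The brain means of *fruitless* at the 4 clock times thus differed by less than the 2 libraries of 12pm did from each other.

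For *doublesex* the highest and lowest fitted levels in olfactory tissue, at 12pm and 6pm, were 2.27 apart (edgeR adjusted p = 0.887). That span changed direction to -0.62 without 12pm replicate 2 (edgeR adjusted p = 0.999). It passed in 1 alternative, with no filter on low counts (log2 span 2.16, edgeR adjusted p = 0.00134), where 2.31% of 14880 genes were called. Over all alternatives its adjusted p ran from 0.00134 to 1.00. In brain the highest and lowest fitted levels of *doublesex*, at 12pm and 12am, were 0.53 apart (edgeR adjusted p = 1.00). Without brain 12pm replicate 2 the brain spans changed direction, to -0.29 for *fruitless* and -0.10 for *doublesex* (edgeR adjusted p = 1.00 for both).

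The background of these tests was low as well. In olfactory tissue 0.0503% of 9948 genes were called (5 genes in edgeR, 46 in DESeq2) and in brain 0.0104% of 9578 genes (1 gene in edgeR, 17 in DESeq2). With 1 to 3 libraries at a clock time, a failed test does not show that the levels were the same.

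The tissue difference was also read at each clock time from the same fit. For *fruitless* the log2 difference of olfactory tissue minus brain was -0.46 (SE 0.36) at 6am, -0.94 (SE 0.36) at 12pm, -1.25 (SE 0.32) at 6pm and -0.76 (SE 0.45) at 12am. It passed at 12pm (edgeR adjusted p = 0.0426) and at 6pm (adjusted p = 0.00675), and not at 6am (adjusted p = 0.294) or 12am (adjusted p = 0.215). The 6am difference did pass on plain library totals (-1.22, edgeR adjusted p = 0.0110) and on totals without the most counted gene (-0.98, adjusted p = 0.0310). With 1 library left out it ran from -0.88 without olfactory 6am replicate 1 to -0.16 without olfactory 6am replicate 3. Its adjusted p ran from 0.0110 to 0.777 over all alternatives. Of all genes, 50% were called at 6am (21.2% as lower in olfactory tissue), 54.1% at 12pm (23.5% lower), 45.5% at 6pm (21.8% lower) and 32.3% at 12am (13.8% lower). The 12am olfactory group is 1 library and was assumed to vary like the others. The 12pm call was lost in 10 of the 16 fits that left out 1 library, with the value closest to 0, -0.24, without brain 12pm replicate 2 (edgeR adjusted p = 0.614). It was also lost when genes averaging under 50 counts were left out (-0.53, edgeR adjusted p = 0.238), and its adjusted p ran from 0.00352 to 0.614 over all alternatives. The 6pm call was lost without brain 6pm replicate 1 (log2 difference -1.04, edgeR adjusted p = 0.0715), the highest over its alternatives, which began at 0.000758.

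For *doublesex* the log2 difference was 1.10 (SE 0.91) at 6am, 2.39 (SE 0.91) at 12pm, 0.36 (SE 0.84) at 6pm and 1.58 (SE 1.03) at 12am. It passed at 12pm alone (edgeR adjusted p = 0.0424), and there it changed direction to -0.38 without olfactory 12pm replicate 2 (adjusted p = 0.732). The call was lost in 7 more of the 16 fits that left out 1 library. It was also lost on plain library totals (edgeR adjusted p = 0.0923), on totals without the most counted gene (adjusted p = 0.0638) and with no low count filter (adjusted p = 0.115). Over all alternatives the 12pm adjusted p ran from 0.00274 to 0.732. The adjusted p at the other clock times was 0.266 to 0.756. Clock times did not change the tissue difference detectably. The interaction had an edgeR adjusted p of 0.972 for *fruitless* and 0.972 for *doublesex*. In that test 0% of 11442 genes were called (0 in edgeR with 367 at an unadjusted p under 0.05, and 19 in DESeq2).

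**Figure D4:**
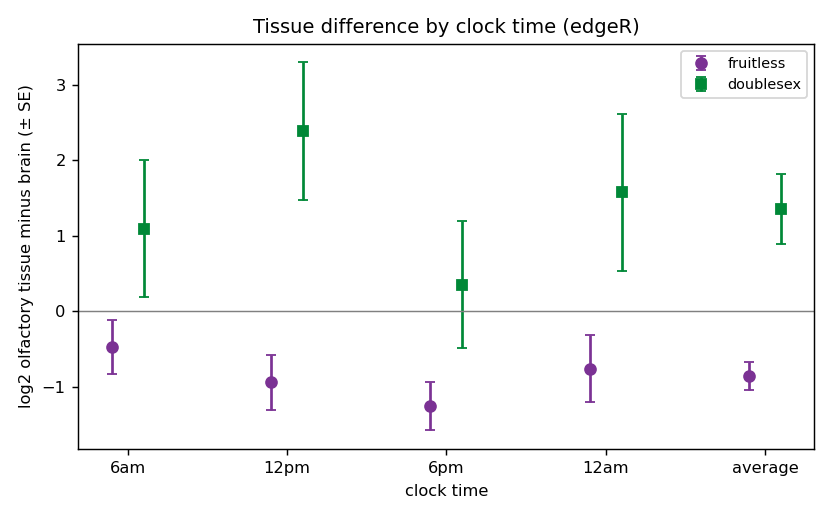
Log2 difference of olfactory tissue minus brain in *fruitless* (circles) and *doublesex* (squares) at each clock time and averaged over the 4, from the edgeR fit, with SE bars. *fruitless* lies below 0 at each clock time, between -1.25 and -0.46, and *doublesex* above 0, between 0.36 and 2.39. The 12pm value of *doublesex* changes direction without 1 olfactory library. Its 6pm value changes direction without brain 6pm replicate 3 (-0.29), on plain library totals (-0.058) and with the replicate block (-0.055).

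Ordered by mean TMM-scaled level, the groups of *fruitless* ran from brain 12pm (161 CPM) through brain 6pm, 6am and 12am to olfactory 6am (89.5 CPM), 12pm (84.5 CPM), 12am (72.5 CPM) and 6pm (61.3 CPM). Neighbours in that order overlapped or could not be ranked by their libraries except for brain 6pm over brain 6am, and olfactory 12am, a single library, over olfactory 6pm. The groups of *doublesex* ran from olfactory 12pm (64.6 CPM) through olfactory 12am (24.3 CPM), 6am (21.4 CPM) and 6pm (15.2 CPM) to brain 12pm (11.9 CPM), 6pm (10.6 CPM), 6am (9.99 CPM) and 12am (8.13 CPM). No neighbours in the *doublesex* order were free of overlap.

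The spread of each gene between libraries of the same clock time was set beside that of the 500 genes nearest in mean level. For *doublesex* in olfactory tissue it was an SD of 1.40 on the log2 scale, against a median of 0.45, and 99.0% of those genes had a smaller spread. Most of it lay between the 2 libraries of 12pm. Without 12pm replicate 2 the SD was 0.58, against a median of 0.42 (72.6% smaller). For *fruitless* in olfactory tissue it was 0.34, against a median of 0.35 (49.6% smaller).

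In brain the SD of *fruitless* was 0.43, against a median of 0.16 (94.4% smaller), and without 12pm replicate 2 it was 0.20, against 0.17 (63.8% smaller). For *doublesex* in brain it was 0.76, against a median of 0.26 (88.6% smaller), and without 6pm replicate 3 it was 0.48, against 0.24 (78.2% smaller). In these groups of 2, leaving out the other library gives the same values. The wide spreads thus came largely from 1 clock time each. These shares are descriptions and carry no test.

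Both genes were at their 2 highest brain levels in the same 2 libraries, 12pm replicate 2 and 6pm replicate 1. These were the 2 deepest libraries, with 10202123 and 9970202 gene counts, and the part of depth was not tested. Over the 8 brain libraries the log2 levels of the genes had a Pearson r of 0.69 (exact permutation p = 0.0513, adjusted p = 0.103 over the 2 tissues) and a Spearman rho of 0.62 (exact permutation p = 0.115, adjusted p = 0.151). Without those 2 libraries, which lay farthest from the median of *fruitless*, r was 0.03, and without 6pm replicate 1 alone, the library farthest in *doublesex*, it was 0.63. Over the 8 olfactory libraries r was 0.61 (exact permutation p = 0.171, adjusted p = 0.171) and rho 0.57 (exact permutation p = 0.151, adjusted p = 0.151). Without 6am replicate 1 and 12pm replicate 2 the olfactory r was -0.003, and without 12pm replicate 2 alone, the farthest in *doublesex*, it was 0.44. The relation did not pass in either tissue. Leaving out the libraries farthest in *fruitless* also takes away most of its range, so the low values of r do not show that there is no relation.

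Patterns most like each gene were sought by the Pearson correlation of log2 TMM-scaled CPM over the 16 libraries. The search covered 8522 other genes with a mean of at least 5 CPM after that scaling. Levels of the genes found, here and for *doublesex*, are means of TMM-scaled CPM. Over all libraries AAEL025785 came closest to *fruitless* (r = 0.95), at a mean of 1.06 CPM in olfactory tissue and 9.37 CPM in brain. With each tissue's mean taken out, AAEL028101 followed *fruitless* most closely (r = 0.94), at 61.4 CPM in olfactory tissue and 54.4 CPM in brain. This r was 0.92 or higher with any 1 library left out. AAEL028101 thus moved with *fruitless* from library to library over both tissues together, and r was not taken within either tissue alone. Its mean was the higher in olfactory tissue with TMM scaling, which raises olfactory over brain levels. Its means in plain CPM were not taken.

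For *doublesex*, AAEL019484 came closest over all libraries (r = 0.91), at 8.21 CPM in olfactory tissue and 2.24 CPM in brain. With tissue means taken out AAEL019516 did (r = 0.94), at 10.8 CPM in olfactory tissue and 18.4 CPM in brain. Without olfactory 12pm replicate 2 these values of r were 0.80 and 0.87. Libraries share depth and preparation, so these correlations describe these libraries and carry no test.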

How the data were processed

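Each deposited file gives the whole-number read counts of 1 library, gene by gene. STAR and HTSeq are named in the submitters' processing notes; their versions, the genome build, the annotation and the strand setting were not given in the sources used here, so counts of overlapping or antisense genes are uncertain. Per the labels' protocols, total RNA was made into libraries with a NEBNext Ultra II kit. Groups follow the sample titles. Replicates are called biological, from 1 cohort; p-values measure the spread between these libraries. The members and gene lists were chosen with earlier results of these data known.

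All 16 *Aedes* files hold stretches of overwritten text, 44 in all. Genes with a damaged line in any file were dropped from every library (405 of 19804, 2.05%). Neither gene lay within 1024 bytes before a stretch, where single characters can be altered unseen. Lines that name no gene took 29.9 to 58.2% of the reads per library and stayed out of library sizes.

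CPM is a count over the summed gene counts. Tests used edgeR 4.0.16 (filterByExpr, TMM, robust quasi-likelihood), with 1 level per tissue and clock time, or clock time within a tissue. Each SE is the log2 difference over the root of F. P-values were adjusted over all genes tested, threshold 0.05. The count ratio used a pseudocount of 0.5 and an exact permutation test. Alternatives were DESeq2 1.42.0, other scalings and filters, genes near damaged text left out, a replicate block, cosine and sine terms of 24 h, a fit that was not robust, a fit without the 12am libraries, and each library left out, which for the spread within a clock time was added after seeing the data. Same-numbered libraries of the same clock time deviated together across the tissues (r = 0.13 to 0.24 over 6 pairs, against -0.24 to 0.03 for other numbers), so the numbers were taken as pairs there. In groups of 2 libraries the deviations mirror each other, so these r are not all independent. Every brain group holds 2 libraries, so the r of other numbers is the negative of a same-number r, also at 6pm (-0.24 and -0.16). The exception is olfactory 6pm replicate 2 (-0.028 and 0.028), which has no same-numbered brain library. The lower r of other numbers thus gives no separate support for the pairs. Within a tissue, same-numbered libraries of different clock times had r from -0.12 to 0.46 in brain and -0.28 to 0.12 in olfactory tissue and were not taken as pairs. By rule, both genes were named and, for each, the 3 genes of most like pattern; as the files pair no ID with a name, 1 of the 3 is printed. The pathway and marker lists could not be matched to IDs and were not analysed here. The fits ran in R 4.3.3 and were tried on simulated data. The simulation had large changes in well-counted genes and the same spread for every gene. It therefore does not cover genes that vary like these 2. Permutation tests used scipy 1.17.1 under Python 3.11.15, with numpy 2.4.6, and figures matplotlib 3.10.9.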

Additional observations from a re-analysis of the deposited data

Results flagged for a closer look

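The *doublesex* level of olfactory 12pm replicate 2, 97.4 CPM, lay far from the other 7 olfactory libraries, which ran from 6.96 to 21.1 CPM. Its gap to the nearest library was 0.844 of the whole range, over Dixon's 95% critical value of 0.526 for 8 libraries. In brain the log2 ratio of *fruitless* to *doublesex* counts was 4.84 in 6pm replicate 3, apart from the other brain libraries, with a gap of 0.566 of the range. That library had the lowest *doublesex* level in brain, 5.18 CPM from 32 counts. In all, 8 sets of 8 libraries were checked at both ends, and chance flags about 1 in 20.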

How the results depend on the processing

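The tissue difference of *fruitless* kept its direction and call in all 28 alternatives, from -1.40 to -0.54, and in the 16 fits that left out 1 library from -0.96 to -0.67. The log2 difference in the count ratio was -2.18 to -1.72 with 1 library left out (exact permutation p = 0.000155 to 0.000311) and -2.03 to -1.95 in the other alternatives. For *doublesex* the tissue call was lost on plain library totals (0.82, adjusted p = 0.121), on totals without the most counted gene (1.03, adjusted p = 0.0596) and with no low count filter (1.28, adjusted p = 0.0678, edgeR). With 1 library left out the value was 0.67 to 1.69. The *doublesex* difference at 6pm changed direction on plain library totals (-0.058) and with the replicate block (-0.055). With 1 library left out it ran from -0.29 to 1.67 at 6pm and from -0.38 to 3.31 at 12pm. The interaction of *doublesex* then ran from -0.75 to 2.97. With 1 library left out the clock time span was -0.29 to 0.82 for *fruitless* and -0.10 to 0.96 for *doublesex* in brain, and 0.10 to 0.87 for *fruitless* and -0.62 to 3.17 for *doublesex* in olfactory tissue. That last span passed with no low count filter (2.16). Replicate numbers were not taken as pairs of clock times, though same-numbered brain libraries of different clock times had a median r of 0.23 (-0.12 to 0.46). With the replicate block the brain spans changed direction (-0.26 for *fruitless*, -0.49 for *doublesex*), with no call. The replicate block, also within clock time with its 7 pairs (a form chosen after seeing the data, as was leaving out 1 pair), changed no call of a tissue difference of either gene. It gave -0.87 for *fruitless* and 1.19 for *doublesex*, and an exact permutation p of 0.000476 for the ratio. The causes were not tested. DESeq2 gave no adjusted p for the *doublesex* interaction. Counts of genes called for clock time, 5 in olfactory tissue, were 46 in DESeq2, 344 with no filter, 3 on plain totals and with a mean of at least 50 counts, 2 without the most counted gene, 31 with the replicate block, 11 with cosine and sine terms, 0 when not robust and 0 to 32 with 1 library left out. In brain, against 1, they were 17 in DESeq2, 0 with the replicate block or cosine and sine terms, and 0 or 1 with 1 library left out. The interaction count of 0 was 19 in DESeq2. Counts of 15 to 111 for *doublesex* in olfactory libraries limit its precision.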
